A study of Mus musculus with 3 samples.

Results

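The genes of the BMP, Nodal and TGF-beta pathways and of the Id family were followed through 3 states of the mouse blastocyst. The 42 genes were taken by name from the 31510 genes of the deposited tables, with earlier results of these data known. Of the 42 genes, 28 were found by the deposited symbol and 14 by Ensembl ID. They comprise 4 BMP ligands, 7 ligands of the Nodal and TGF-beta branch, 7 genes for ligand processing, co-receptors and inhibitors, 5 type I and 4 type II receptors, 5 SMADs, 6 inhibitory SMADs and SMAD repressors, and 4 Id genes.

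The blastocysts came from CD-1 mice aged 2 months in which implantation was delayed. All mothers were ovariectomized on day 4 of pregnancy and given progesterone, 2 mg per mouse each day, on days 5 to 7. Dormant blastocysts were flushed from uteri on day 8 without any E2 (estradiol, the hormone that ends the delay). Reactivating and reactivated blastocysts came from mothers given E2 on day 7 and killed 6 h and 12 h later. Each state is 1 library from a pool of more than 3000 blastocysts, so that no difference between states has a replicate check, and the day and hour of collection cannot be told apart from the state. The embryos still lay in the uterus of a progesterone-treated mother in all 3 states, so that the dormant library is not an untreated control. The libraries are rRNA-depleted total RNA and hold reads from introns as well as exons.

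TGF-beta family ligands bind a pair of type II and a pair of type I receptor kinases. The type I receptor then phosphorylates a receptor SMAD, SMAD1 and SMAD5 for BMPs or SMAD2 and SMAD3 for Nodal, activin and TGF-beta, which enters the nucleus with SMAD4. Id proteins lack a DNA-binding region, keep E proteins off DNA, and are classical targets of BMP signalling. Nodal in the mouse embryo is made by the epiblast, needs a co-receptor of the Cripto family, and is held back by the Lefty proteins, and BMP4 from the embryo acts on neighbouring trophoblast.

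The libraries held 9298675 to 12941447 exon reads, of which the 42 genes took 0.142%, 0.146% and 0.161% in the order dormant, reactivating, reactivated. Levels are RPKM, exon reads scaled to exon length in kilobases and to the library's total of reads, and carry exact 95% Poisson intervals that cover counting error only. Since the reads carry no molecular identifiers, they do not count independent molecules. The labelled tissue held its defining genes: all 8 trophectoderm, 8 epiblast (among them Tdgf1, a gene of the pathway) and 7 primitive endoderm markers reached 1 RPKM. Summed over each list, trophectoderm markers stood at 1277, 1267 and 1009 RPKM in dormant, reactivating and reactivated blastocysts, epiblast markers at 192, 238 and 225, and primitive endoderm markers at 202, 218 and 106. Dab2 carried the last of these, at 138, 157 and 53.2 RPKM, and the other 6 genes summed to 64.7, 61.3 and 52.6. The median log2 difference of the 7 at 12 h against dormant was -0.24, and Foxa2 went the other way, from 1.82 to 3.60. Krt18 carried the trophectoderm sum, at 807, 834 and 624 RPKM. From dormant to 12 h, 6 of the 8 trophectoderm markers were lower and 2 higher, with a median log2 difference of -0.38. Cdx2 went from 113 to 34.8 RPKM and Gata3 from 48.0 to 21.1, while Elf5 went from 30.1 to 81.3. The summed markers of maternal cells were lower in the reactivated library, at 71.2, 71.7 and 26.8 RPKM for uterine epithelium (3 of 9 genes at 1 RPKM or more), 4.27, 3.79 and 1.22 for stroma (1 of 6) and 20.6, 16.4 and 6.69 for immune cells (3 of 8). Lif (35.8 in dormant and 9.55 in reactivated) and Wfdc2 (30.1 and 13.4) carried the uterine epithelium sum, and Laptm5 (13.7 and 4.11) the immune sum. Under 1 RPKM, some listed genes were higher in the reactivated library than in dormant. These were Ltf (0.28 and 0.94), Areg (0.23 and 0.87), Esr1 (0.15 and 0.16), Ptprc (0.09 and 0.20) and Fcer1g (0.47 and 0.78). The red blood cell genes Hbb-bs (0.11 and 0.17) and Hbb-bt (0.11 and 0.25) were also higher. The red blood cell genes summed to at most 0.66 RPKM, with Hba-a1 and Hba-a2 at 0. In pooled embryos, fewer cells of a type and less RNA per cell cannot be told apart. The part of these marker shifts in the results that follow was not tested.

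A gene counted as higher or lower when log2((RPKM + 1)/(RPKM + 1)) between 2 libraries was at least 1 in size and the higher library had at least 1 RPKM. By this size rule none of the 27 pathway genes tested at 6 h moved, against 5.75% of 12126 genes and 0.974% of the protein-coding ones. At 12 h against dormant, Skil and Id1 rose and none fell among 28 tested (7.14%). The share over all 12037 genes was 12.9%, with 5.27% higher and 7.66% lower, and 9.16% over protein-coding genes. Between 6 h and 12 h Id1 and Skil rose and Nodal fell among 28 (10.7%). Over all 12065 genes 11.4% passed, 3.82% higher and 7.63% lower, and 9.04% of protein-coding genes passed. The pathway shares thus lay near or under the background. The median difference of the tested pathway genes was -0.02 at 6 h, 0.08 at 12 h against dormant and 0.05 from 6 h to 12 h, with 0.06, -0.07 and -0.13 over all genes. The 3 comparisons share libraries and are not independent.

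**Figure D1:**
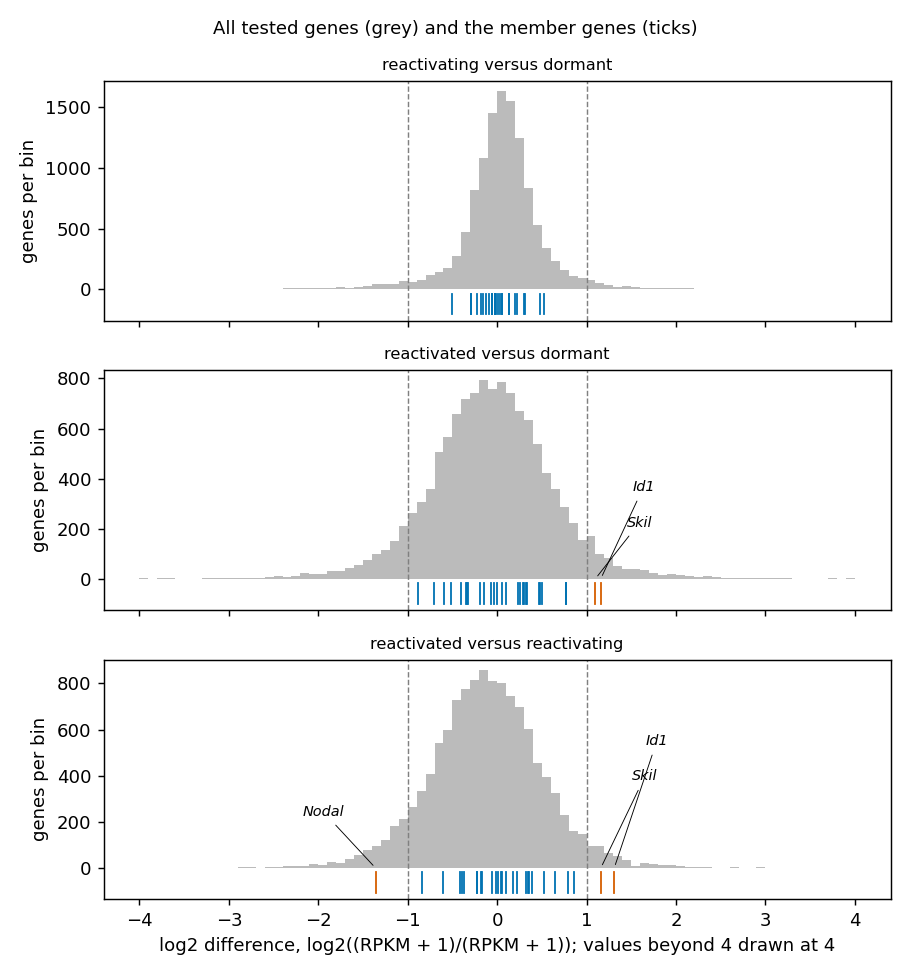
Histograms of the log2 difference of all tested genes (grey, genes per bin of 0.1) with the tested pathway genes as ticks under each axis, for the 3 pairs of libraries. Orange ticks mark genes past the size rule (dashed lines at -1 and 1): none at 6 h, Skil and Id1 at 12 h against dormant, and Nodal, Skil and Id1 from 6 h to 12 h.

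Nodal, the ligand that patterns the epiblast, was the only one of the 42 genes to pass the rule downwards. Nodal (ENSMUSG00000037171, GRCm38 chromosome 10, 61417972 to 61425338) stood at 7.57 RPKM (6.53 to 8.72, 190 exon reads) in dormant, 11.0 (9.78 to 12.3, 306 reads) in reactivating and 3.67 (3.06 to 4.38, 124 reads) in reactivated blastocysts. It was thus highest at 6 h and lowest at 12 h, and the 3 intervals do not overlap. Between those times 6 of the 8 epiblast markers were lower and their median log2 difference was -0.16. Esrrb passed the rule downwards (17.1 to 7.70 RPKM, -1.06), and Klf4 stood at 6.53 and 3.97. Tdgf1 (20.8 and 26.7) and Zfp42 (24.4 and 25.5) were the 2 higher ones. The summed level of 238 and 225 RPKM was carried by Pou5f1 (125 and 124), and the other 7 markers summed to 113 and 101. From dormant to 12 h, 4 of the 8 epiblast markers were higher and 4 lower, with a median of 0.01. The part of these markers in the Nodal values was not tested. From 6 h to 12 h Nodal fell by 1.36 on the log2 scale, to 0.335 of its level (exact 95% interval of the ratio of reads 0.270 to 0.414), and only 339 of the 12065 tested genes had a lower value in that comparison. Against dormant, the values of 0.48 at 6 h and -0.88 at 12 h did not pass. Its introns held 18, 33 and 12 reads, in the same order as the exons, but too few for a ratio.

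Upstream windows from RefSeq (GRCm38.p6) were searched for DNA motifs that SMADs and their partners read, and those of Nodal and Bmp8b are shown since these are the ligands with the largest differences. The search covered the 250 bases before each start site on both strands, for GGCGCC, for the palindrome GTCTAGAC, for the shorter SMAD element CAGAC and for the E box CANNTG. None of these 4 contains another. Capitals mark GGCGCC, GTCTAGAC or CAGAC, or the last one read on the other strand as GTCTG. The Nodal window, chr10:61417722-61417971 on the plus strand, held none of the 4 motifs. The Bmp8b window, chr4:123104911-123105160 on the plus strand, held CAGAC, its first base 126 bases before the start, and an E box.
Nodal: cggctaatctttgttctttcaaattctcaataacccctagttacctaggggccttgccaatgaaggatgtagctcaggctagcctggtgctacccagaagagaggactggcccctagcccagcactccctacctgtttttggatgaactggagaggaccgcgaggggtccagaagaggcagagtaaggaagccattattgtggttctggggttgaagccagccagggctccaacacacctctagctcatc
Bmp8b: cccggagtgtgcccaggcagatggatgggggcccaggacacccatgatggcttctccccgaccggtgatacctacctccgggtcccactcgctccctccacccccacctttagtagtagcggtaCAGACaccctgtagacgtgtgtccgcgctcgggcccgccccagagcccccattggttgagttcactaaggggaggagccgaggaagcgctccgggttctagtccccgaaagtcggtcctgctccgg
Of the 42 genes 28 had windows in the table, 33 in all. GGCGCC occurred in 8 of the 33 (24.2%), against 9.59% of all 32851 windows, and their median GC content was 65.2% against 52.4%. CAGAC occurred in 14 (42.4%, against 42.2%), the E box in 12 (36.4%, against 66.2%), and GTCTAGAC in none, against 0.167%. These are matches of letters and not binding sites.

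The other measured ligand of the Nodal branch, Gdf3, which resembles Nodal in using Cripto, stood at 7.83, 6.53 and 5.70 RPKM in dormant, reactivating and reactivated blastocysts. Its log2 difference from dormant was -0.40 at 12 h. In dormant blastocysts Gdf3 and Nodal lay within each other's intervals, and in reactivated ones the interval of Gdf3 (4.77 to 6.75) lay above that of Nodal. The activin subunit genes Inhba and Inhbb and the ligands Tgfb1, Tgfb2 and Tgfb3 stayed at or under 0.26 RPKM in every library. Tgfb1 had 1, 3 and 8 exon reads, which is too few for a level.

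Among BMP ligands, Bmp8b and Bmp4 were measured and both stood highest at 12 h. Bmp8b (ENSMUSG00000002384, chromosome 4, 123105165 to 123132099), best known from the germ line, had 1.52 RPKM (1.17 to 1.94, 63 reads) in dormant, 1.37 (1.05 to 1.75, 63 reads) in reactivating and 3.31 (2.85 to 3.83, 185 reads) in reactivated blastocysts. The interval at 12 h lay above the other 2, and the ratio of reads to dormant was 2.18 (1.63 to 2.96). On the scale with the pseudocount the difference was 0.77, short of the rule. Reads across the exon junctions of Bmp8b numbered 11, 2 and 19. The junction ratio from dormant to 12 h was 1.28, with an interval (0.581 to 2.99) that includes 1. Exons of Bmp8b overlap 339 exon bases of Gm17244 and 133 of Ppie on the other strand. Of the Bmp8b transcript sequence 5.50% is shared with its neighbour Bmp8a in stretches of 50 bases, so that some reads could belong to either. Bmp8a was under 1 RPKM in each library, at 0.76, 0.93 and 0.82. Bmp4, the BMP that epiblast sends to trophoblast, stood at 1.56 (1.14 to 2.10), 1.53 (1.13 to 2.03) and 2.62 RPKM (2.13 to 3.18), with a ratio of reads of 1.67 (1.16 to 2.44) from dormant to 12 h. Bmp2 stayed at or under 0.45 RPKM. Bmp7 had 10, 17 and 2 exon reads, and its ratio from 6 h to 12 h was 0.0972 (0.0109 to 0.410) at a level that never reached 1 RPKM.

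**Figure D2:**
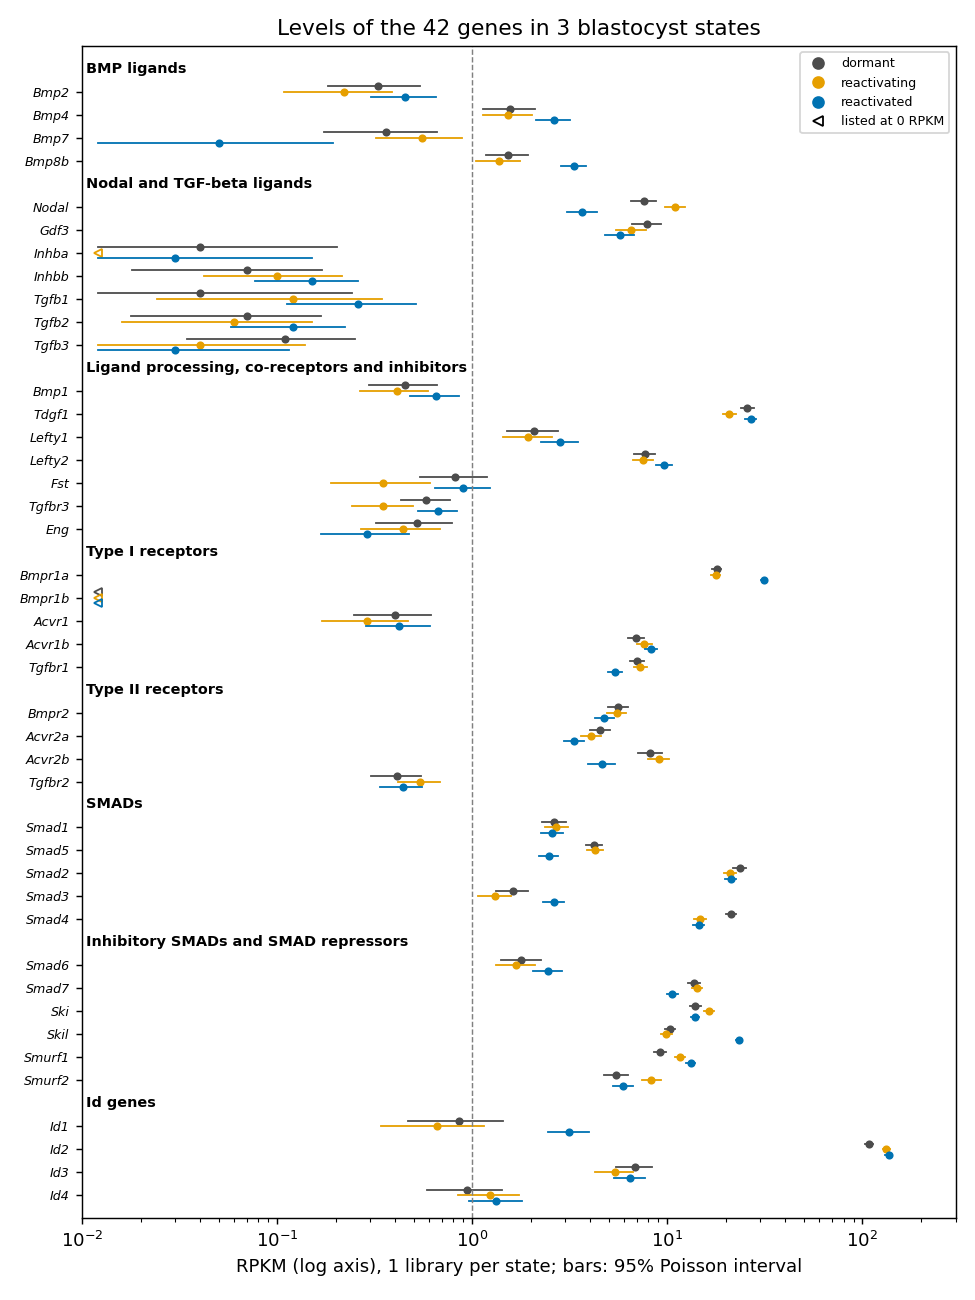
Levels of the 42 genes in RPKM on a log axis, grouped by role, 1 point per library with its 95% Poisson interval (drawn down to 0.012 RPKM at the lowest); open triangles are genes listed at 0. Of the 42, 28 reach the dashed line at 1 RPKM in a library and 14 do not, and Id2 stands highest, at 108 to 136 RPKM.

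The co-receptor Cripto and the Lefty inhibitors of Nodal did not pass the rule in any comparison. Tdgf1, which encodes the co-receptor Cripto, was the most abundant ligand, co-receptor or inhibitor gene among the 42, at 25.7, 20.8 and 26.7 RPKM. It was lowest at 6 h, where Nodal was highest, with a log2 difference of -0.29 from dormant. Lefty2, a secreted inhibitor of Nodal, stood at 7.67 (6.78 to 8.65), 7.53 (6.69 to 8.44) and 9.62 RPKM (8.75 to 10.5). Lefty1, its close copy 35918 bases away on chromosome 1, stood at 2.06, 1.93 and 2.83 RPKM, and its ratio of 1.37 to dormant at 12 h has an interval (0.949 to 2.01) that includes 1. The summed Lefty level was 1.29 times that of Nodal in dormant, 0.862 times in reactivating and 3.39 times in reactivated blastocysts. Lefty1 shares 17.9% of its transcript sequence with Lefty2, and Tdgf1 8.86% with the pseudogene Tdgf1-ps1, again in stretches of 50 bases, so that their values carry that uncertainty. Bmp1, a protease that trims ligand antagonists and collagens, the activin antagonist Fst, and the co-receptors Tgfbr3 and Eng stayed under 1 RPKM. Fst had 27, 13 and 40 exon reads and was lowest at 6 h, at 0.82, 0.35 and 0.90 RPKM.

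**Figure D3:**
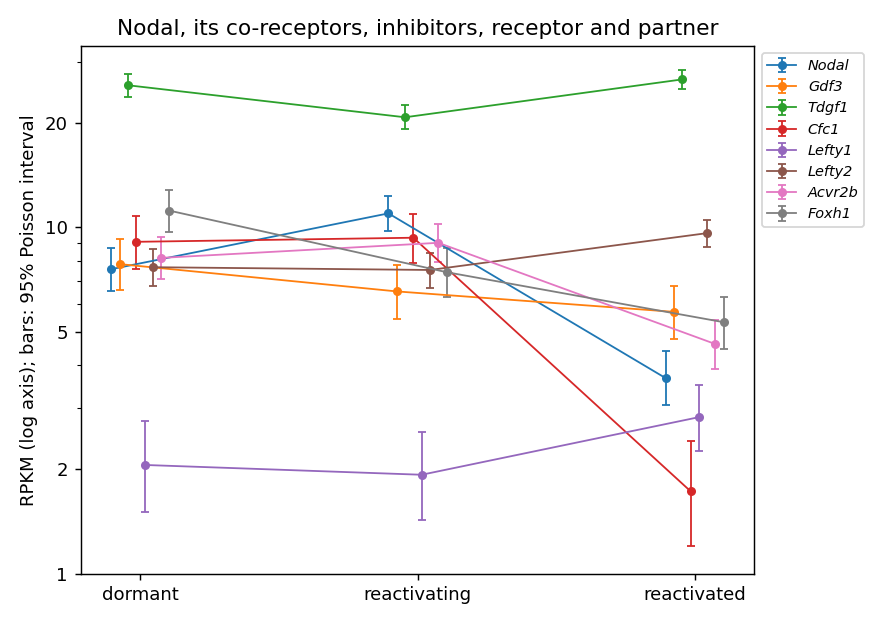
RPKM on a log axis of Nodal, Gdf3, the co-receptor genes Tdgf1 and Cfc1, the inhibitors Lefty1 and Lefty2, the receptor Acvr2b and the SMAD partner Foxh1 in the 3 states, 1 library each, with 95% Poisson intervals. Lines join the libraries of a gene; Nodal goes from 11.0 to 3.67 and Cfc1 from 9.33 to 1.73 RPKM between 6 h and 12 h, while Lefty2 stands at 7.53 and 9.62.

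No receptor gene passed the rule in any comparison. Bmpr1a, the BMP type I receptor ALK3 (ENSMUSG00000021796, chromosome 14, 34410734 to 34503341), was the most abundant receptor in each library, at 17.9 (17.0 to 18.9), 17.6 (16.8 to 18.6) and 31.2 RPKM (30.1 to 32.3). The first pair of libraries overlapped and the third lay above both, a ratio to dormant of 1.74 (1.64 to 1.86) and a log2 difference of 0.77. The activin and Nodal type I receptor Acvr1b stood at 6.90, 7.62 and 8.25 RPKM, and the TGF-beta type I receptor Tgfbr1 at 7.01, 7.27 and 5.40. Bmpr1a thus stood at 1.29 times the sum of these 2 in dormant, 1.19 times in reactivating and 2.28 times in reactivated blastocysts. The other type I receptors were low: Acvr1 stayed at or under 0.42 RPKM, and Bmpr1b had no exon read in any library, which allows at most 0.0366, 0.0330 and 0.0272 RPKM.

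The 3 measured type II receptors stood below their dormant levels at 12 h. Acvr2b, which binds activin and Nodal (ENSMUSG00000061393, chromosome 9, 119402118 to 119434995), was at 8.16 (7.07 to 9.37), 9.02 (7.93 to 10.2) and 4.60 RPKM (3.90 to 5.39). Like Nodal it was lowest at 12 h, with a log2 difference of -0.84 from 6 h that did not pass. Unlike those of Nodal, its dormant and 6 h intervals overlap. Acvr2a, with similar ligands, stood at 4.52, 4.07 and 3.34 RPKM, and Bmpr2, the BMP type II receptor, at 5.57, 5.51 and 4.76, where the ratio at 12 h of 0.854 (0.725 to 1.01) includes 1. Reads across the exon junctions of Acvr2a numbered 12, 54 and 27, a junction ratio at 6 h of 4.05 (2.14 to 8.32) beside an exon ratio of 0.900. Exons of Acvr2a overlap 446 exon bases of Orc4 on the other strand. The Acvr2b level went from 2.22 times that of Acvr2a at 6 h to 1.38 times at 12 h. Tgfbr2, which TGF-beta itself requires, stayed at or under 0.54 RPKM.

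The windows before the RefSeq starts of the receptors with the largest differences, Bmpr1a and Acvr2b, are shown. Each runs up to the first base it reaches of any exon of the gene in GENCODE M21. The Bmpr1a stretch, chr14:34502688-34502796 on the minus strand, lies between exons of the M21 gene and so is not upstream of the M21 start. It holds GGCGCC, whose first base is 198 bases before the RefSeq start. The Acvr2b stretch, chr9:119401928-119402117 on the plus strand, holds CAGAC on the other strand, its first base 233 bases before the start.
Bmpr1a: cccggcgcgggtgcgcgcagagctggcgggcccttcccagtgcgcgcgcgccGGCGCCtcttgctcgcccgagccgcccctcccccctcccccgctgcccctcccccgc
Acvr2b: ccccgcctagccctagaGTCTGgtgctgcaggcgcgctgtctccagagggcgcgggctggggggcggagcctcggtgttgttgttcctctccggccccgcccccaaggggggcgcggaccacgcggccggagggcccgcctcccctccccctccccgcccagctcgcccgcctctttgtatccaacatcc

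**Figure D4:**
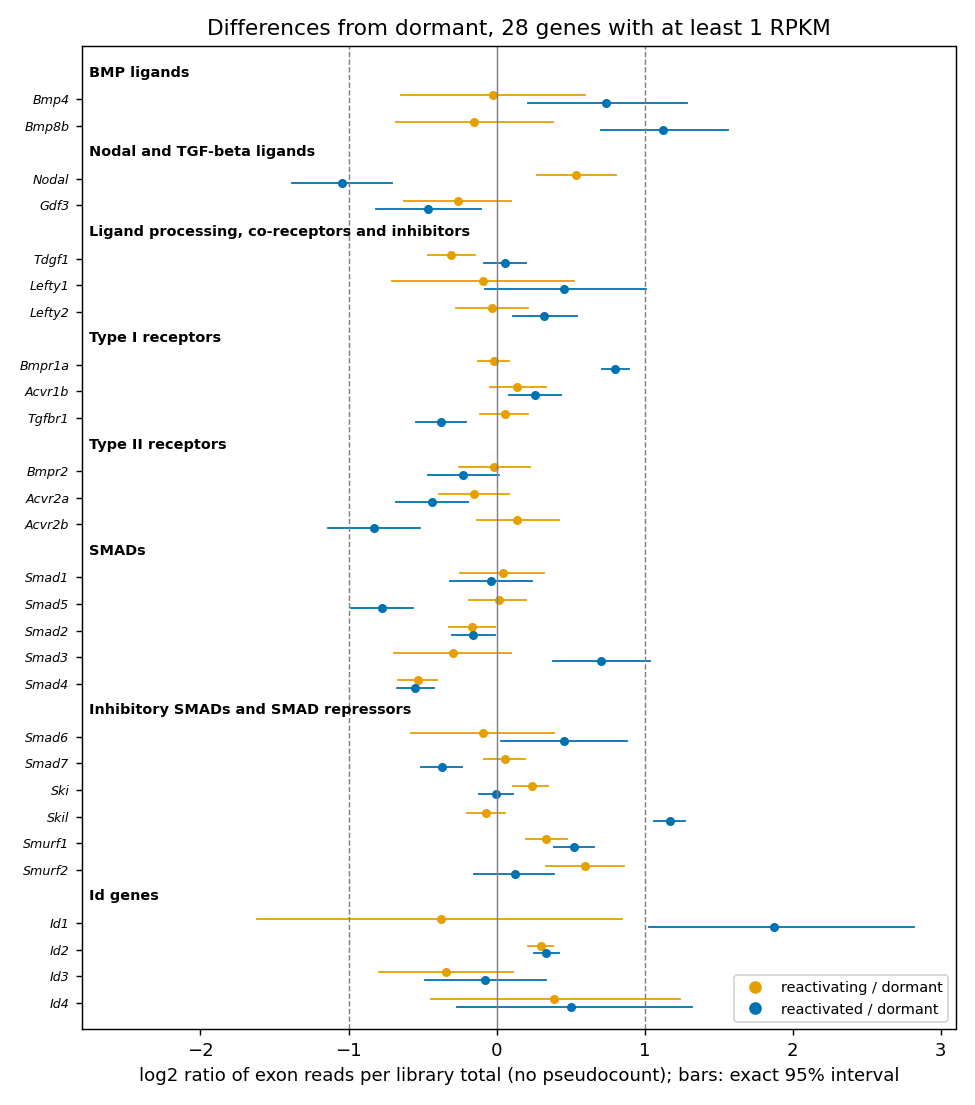
Log2 ratio of exon reads per library total to dormant, without a pseudocount, for the 28 genes that reach 1 RPKM anywhere, at 6 h (orange) and 12 h (blue), with exact 95% intervals and dashed lines at -1 and 1. Of these genes 20 have a 12 h interval that excludes a ratio of 1, which 66.7% of all 12037 tested genes also have; Bmp8b and Nodal lie past a dashed line here, but not with the pseudocount of the size rule.

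No SMAD passed the rule in any comparison. Smad2 was the most abundant of the 5 in every library, at 23.5, 20.9 and 21.1 RPKM, followed by the common partner Smad4. Smad4 stood at 21.2 (19.9 to 22.5) in dormant, 14.7 (13.7 to 15.7) in reactivating and 14.5 RPKM (13.6 to 15.4) in reactivated blastocysts. Both states after E2 lay below dormant and overlapped each other, and the log2 difference of -0.51 at 6 h was the lowest among the tested ones of the 42 genes in that comparison. Smad3, the second SMAD of the Nodal branch, was at 1.61 (1.33 to 1.93), 1.31 (1.07 to 1.58) and 2.62 RPKM (2.30 to 2.96), so that the ratio of Smad2 to Smad3 was 14.6, 16.0 and 8.04. In the BMP branch Smad5 stood at 4.22 (3.83 to 4.64), 4.25 (3.87 to 4.65) and 2.47 RPKM (2.21 to 2.75), a log2 difference of -0.59 from dormant to 12 h. The opposite strand of Smad5 held 12, 99 and 43 reads. Smad1 stood at 2.63, 2.70 and 2.56 RPKM, with overlapping intervals. The summed Smad2 and Smad3 level was 3.66, 3.20 and 4.71 times that of Smad1 and Smad5.

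Skil, which encodes the SMAD repressor SnoN, rose at 12 h. Skil (ENSMUSG00000027660, chromosome 3, 31095058 to 31122577) stood at 10.4 RPKM (9.72 to 11.0, 983 exon reads) in dormant, 9.86 (9.27 to 10.5, 1039 reads) in reactivating and 23.3 (22.4 to 24.1, 2969 reads) in reactivated blastocysts. The first pair of libraries overlapped and the 12 h library lay above both, with log2 differences of 1.10 from dormant and 1.16 from 6 h. The ratios of reads were 2.25 (2.09 to 2.42) and 2.36 (2.20 to 2.54), and reads across exon junctions numbered 49, 33 and 106. Its relative Ski, which binds SMADs in the same way, stood at 13.9, 16.4 and 13.9 RPKM. The level of Skil was therefore 0.744 times that of Ski in dormant, 0.602 times at 6 h and 1.67 times at 12 h.

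The other negative regulators did not pass. Smad7, which blocks type I receptors of either branch, stood at 13.7 (12.8 to 14.7), 14.2 (13.3 to 15.1) and 10.6 RPKM (9.92 to 11.3), below both earlier libraries at 12 h. Its reads across exon junctions went the other way, at 7, 14 and 30, a junction ratio of 3.19 (1.37 to 8.60) from dormant to 12 h beside the exon ratio of 0.773. The 7 reads in dormant are under the 10 asked for where junctions were compared. Smad6, which acts mainly on BMP receptors, stood at 1.78, 1.67 and 2.43 RPKM. The ubiquitin ligase gene Smurf1 stood at 9.19 (8.52 to 9.89), 11.6 (10.9 to 12.3) and 13.2 RPKM (12.5 to 13.9), with no overlap among the 3 intervals. Smurf2 was highest at 6 h, at 5.48 (4.74 to 6.31), 8.29 (7.42 to 9.24) and 5.95 RPKM (5.28 to 6.68), and its log2 difference of 0.52 at 6 h was the highest among the tested ones of the 42 genes in that comparison.

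Of the Id genes, Id2 was abundant in every state and Id1 rose from a low level. Id1 (ENSMUSG00000042745, chromosome 2, 152736251 to 152737410) stood at 0.85 RPKM (0.467 to 1.43, 14 exon reads) in dormant, 0.66 (0.341 to 1.15, 12 reads) in reactivating and 3.13 (2.44 to 3.97, 69 reads) in reactivated blastocysts. The 12 h library lay above the other 2, which overlapped. The log2 differences of Id1 were 1.16 from dormant and 1.31 from 6 h, and the ratios of reads 3.67 (2.04 to 7.05) and 4.75 (2.55 to 9.64), wide because of the few reads. The deposited gene model of Id1 has no intron, so that unspliced RNA could not be set apart. Id2 (ENSMUSG00000020644, chromosome 12, 25093799 to 25097140) stood at 108 (103 to 113), 133 (128 to 138) and 136 RPKM (131 to 141). It ranked between 337 and 394 among all genes and took 92.6%, 94.8% and 92.6% of the summed RPKM of the 4 Id genes, and its log2 differences from dormant of 0.30 and 0.33 did not pass. Id3 stood at 6.79, 5.37 and 6.44 RPKM and Id4 at 0.94, 1.23 and 1.33, both with overlapping intervals. Reads across the exon junctions of Id3 numbered 1, 14 and 14, too few in dormant for a comparison with the exons. The Id genes together stood at 7.05, 7.78 and 9.82 times the sum of Tcf3, Tcf4 and Tcf12, the genes of the E proteins that Id proteins bind. Among the E protein genes Tcf3 stood at 9.76, 11.1 and 8.33 RPKM, Tcf12 at 6.31, 6.53 and 6.48, and Tcf4 at 0.42, 0.35 and 0.15.

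The stretch before the RefSeq start of Id2, the most abundant of the 42 genes, is shown up to the first base it reaches of any M21 exon of the gene. It covers chr12:25096254-25096342 on the minus strand, lies between exons of the M21 gene and so is not upstream of the M21 start. The stretch holds GGCGCC, its first base 231 bases before the RefSeq start, and an E box, its first base 196 bases before it.
Id2: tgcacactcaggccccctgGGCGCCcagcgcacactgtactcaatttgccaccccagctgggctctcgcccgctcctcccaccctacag

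Intron reads, which libraries of total RNA hold, give a second readout of the same genes in the same libraries; which RNA they came from was not tested. At least 50 exon and 50 intron reads in both libraries were available for 19 pathway genes at 12 h against dormant. Over 6327 genes with as many reads the median ratio was 0.951 for exons and 0.843 for introns, and 62.1% had the higher ratio in exons. In 16 of the 19 pathway genes the exon ratio was the higher. The exon and intron intervals did not overlap in 9 of the 19, as in 38.9% of the 6327 genes. Skil is among the 9: its introns held 132, 110 and 211 reads, and the intron ratio was 1.19 (0.952 to 1.49) from dormant and 1.59 (1.25 to 2.01) from 6 h, in each case under the exon ratio. Bmpr1a likewise had an intron ratio of 1.25 (1.11 to 1.41), under its exon ratio of 1.74.

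Acvr2b was the exception among the 9, since its intron ratio was the higher. Its introns held 125, 137 and 150 reads, an intron ratio of 0.893 (0.699 to 1.14) from dormant to 12 h beside an exon ratio of 0.563, and reads across its exon junctions numbered 54, 46 and 19. Of 17 pathway genes with at least 10 junction reads in both libraries it was the one whose junction ratio, 0.262 (0.146 to 0.449), had an interval apart from that of the exons, against 13.6% of 7051 genes. Smad4 introns held 645, 645 and 441 reads. Its exon level was thus already lower at 6 h, with a ratio of 0.691 and an intron ratio of 0.900 (0.806 to 1.01), whereas from 6 h to 12 h the exon ratio was 0.990 and the intron ratio 0.565 (0.499 to 0.639). For Tdgf1 the readouts went opposite ways from 6 h to 12 h, with an exon ratio of 1.29 and an intron ratio of 0.509 (0.392 to 0.659). The deposited model of Tdgf1 has 28340 intron bases, while the M21 gene spans only 110939603 to 110946158 on chromosome 9. Most of the counted intron thus lies outside the M21 gene, and whether its reads belong to Tdgf1 was not tested. Smad3, Smad5 and Smad7 had exon and intron ratios with overlapping intervals at 12 h against dormant, with intron ratios of 1.55, 0.538 and 0.764 beside exon ratios of 1.63, 0.585 and 0.773. Bmpr1b, with no exon read, still had 53, 125 and 116 intron reads, against 54, 106 and 157 reads on the opposite strand of the gene.

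**Figure D5:**
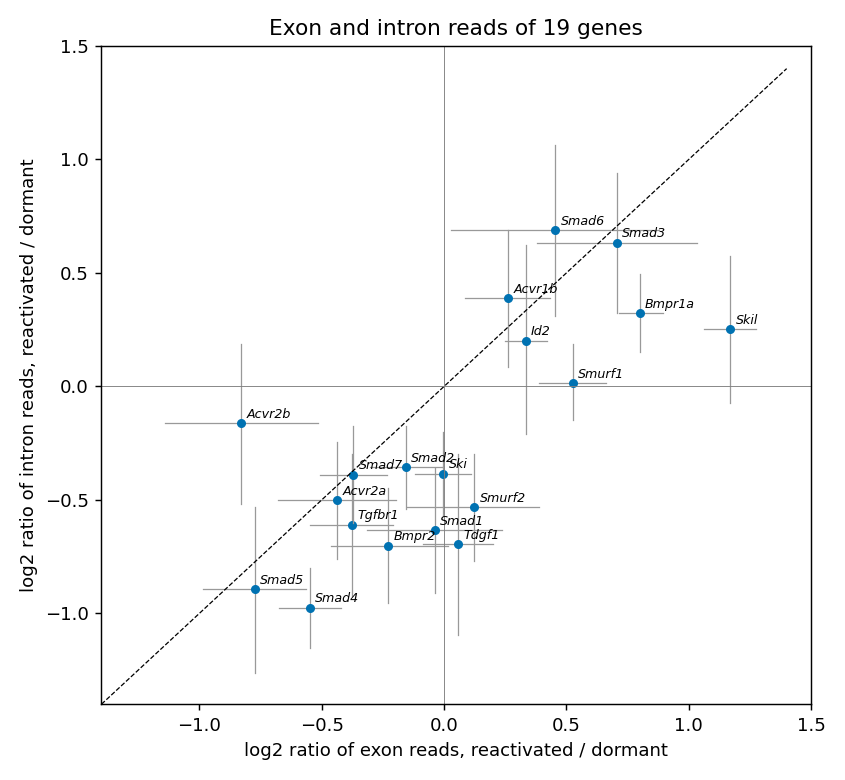
Log2 ratio of intron reads against log2 ratio of exon reads, reactivated over dormant, for the 19 pathway genes with at least 50 of each in both libraries; bars are exact 95% intervals and the dashed line marks equal ratios. Of the 19, 16 lie below the line, Skil and Bmpr1a among them, and Acvr2b lies above it.

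A list of 96 further pathway genes, of which 94 were in the tables and 45 reached 1 RPKM, was read by the same rule. None of 45 passed at 6 h. At 12 h none of 44 rose and 8 fell (18.2%, median -0.33) against dormant, and none of 45 rose and 4 fell (8.89%, median -0.27) against 6 h. Over all genes 7.66% were lower at 12 h with a median of -0.07 against dormant, and 7.63% with a median of -0.13 against 6 h, so that the latter share lay near the background. Cfc1, which encodes Cryptic, the second Nodal co-receptor of the Cripto family, fell from 9.08 RPKM (7.60 to 10.8) in dormant and 9.33 (7.91 to 10.9) in reactivating to 1.73 (1.20 to 2.41) in reactivated blastocysts, log2 differences of -1.88 and -1.92. Of the SMAD regulators, the SMAD phosphatase gene Ppm1a fell from 66.7 to 26.1 RPKM from dormant to 12 h and stood at 37.6 at 6 h, and the phosphatase gene Ctdsp2 fell from 20.9 to 7.94. Foxh1, the transcription factor through which SMAD2 acts at Nodal targets, stood at 11.2, 7.42 and 5.32 RPKM, a log2 difference of -0.95 at 12 h that did not pass.

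Of 10 measured genes outside the 42 that are reported as targets of these pathways, 5 fell at 12 h against dormant and none rose. Over all genes 7.66% were lower and 5.27% higher. The homeobox gene Msx2, a BMP target, stood at 5.14, 6.96 and 1.63 RPKM, log2 differences at 12 h of -1.22 from dormant and -1.60 from 6 h. Tgfbi, named for its induction by TGF-beta, fell from 8.38 to 2.84 RPKM and Bhlhe40 from 38.1 to 18.4. The CDK inhibitor gene Cdkn1a and the trophectoderm factor Gata3, which many other signals also control, are the remaining 2, with log2 differences from dormant of -1.92 and -1.15. The Id genes, named above as BMP targets, belong to the 42 and not to these 10. Their log2 differences from dormant to 12 h were 1.16 for Id1, 0.33 for Id2, -0.07 for Id3 and 0.26 for Id4. Htra1, a protease that cleaves TGF-beta family proteins, stood at 31.6, 42.1 and 58.3 RPKM, and its difference of 0.86 from dormant was the highest of the list without passing. The ligands outside the 42 were low: of 19, only Bmp6 reached 1 RPKM in a library, at 1.43, 0.92 and 2.01 RPKM.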

How the data were processed

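The authors sequenced rRNA-depleted total RNA of pooled blastocysts as 50 bp single-end SOLiD reads, per the labels' protocols. They deposited read counts per gene, per the file headers in exons, introns, exon junctions and on the opposite strand, with an RPKM per gene. The build is GRCm38, per the submitters' processing notes; the aligner, the counter and the annotation were not given in the sources used here. From exon reads, exon length and RPKM of genes with 200 reads or more came library totals of 14118723 (dormant), 15687239 (reactivating) and 18982195 (reactivated), with which every RPKM of the 42 genes followed from its reads within 0.00499. Coordinates and exon overlaps are those of GENCODE M21 (GRCm38), matched on the Ensembl ID. Its chromosome matched for all 42 genes, its gene length for 5, and exon lengths are the deposited ones. A deposited symbol that is an older name of another gene was not used.

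Each state being 1 library, no SD, p-value or test over replicates could be given. The size rule asked for 2-fold on RPKM + 1, a scale that understates changes of low genes, and at least 1 RPKM in the higher library. Single counts have exact Poisson and ratios of counts exact binomial 95% intervals. Apart from these intervals, a count of 0 was taken to allow up to 3 reads. Intron ratios needed 50 reads in both libraries, and exon and junction intervals were compared where junctions had 10. Every one of the 42 genes is accounted for, those at 1 RPKM or more with each level. Further pathway genes are named where they passed the rule with at least 5 RPKM. Bmp8a, Foxh1, Htra1, Bmp6 and the E protein genes Tcf3, Tcf4 and Tcf12 were given levels after their values were seen. The genes, lists and tests were chosen with earlier results of these data known. Protein sequences were not used here. Alternatives covered the pseudocount, the minimum level, the fold, the scaling and exon plus intron reads. Software was Python 3.11.15, pandas 2.3.3, numpy 2.4.6, scipy 1.17.1 and matplotlib 3.10.9.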

Additional observations from a re-analysis of the deposited data

How the results depend on the processing

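Skil, Id1 and Nodal passed the rule in the same direction under median-ratio and upper-quartile scaling and without a minimum level. From 6 h to 12 h those scalings moved all genes by 0.16 and 0.17 (log2), raised the share of higher genes among those called from 33.4% to 49.6% and 50.8%, and moved the pathway median to 0.17 and 0.19. At 12 h against dormant a pseudocount of 0.1 gave 4 pathway genes instead of 2, adding Bmp8b (1.07) and Nodal (-1.02), while the share of all genes went from 12.9% to 21.5%. A minimum of 5 RPKM left 1, Skil, since Id1 is too low for it, with a median of -0.03. Exon plus intron reads gave a median of 0.20 there and 1 gene at 6 h, Tgfb1, which has few reads. A 1.5-fold rule gave 7 genes at 12 h against dormant (4 higher, 3 lower) and 8 against 6 h (5 higher, 3 lower), of 28 each, beside 34.5% and 32.6% of all genes. Under the 2 scalings 7 instead of 8 further pathway genes fell at 12 h. Of these further genes a pseudocount of 0.1 gave 11 lower at 12 h against dormant, and their median of -0.33 there became -0.09 without a minimum level and with exon plus intron reads. That pseudocount raised 1 at 6 h and 1 from 6 h to 12 h, and exon plus intron reads raised 2 at 12 h against dormant, in place of 0 each. No called gene changed sign. No paired analysis was possible because each state is 1 library, and for the same reason no replicate could be left out. Depth limits the genes under 1 RPKM and Id1: for 1 kb of exon a count of 0 allows 0.212, 0.191 and 0.158 RPKM in dormant, reactivating and reactivated libraries.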
